A study of Homo sapiens with 8 samples.

Results

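The genes described here make cholesterol and long-chain fatty acids, sense and move sterols, or answer to the sterol-activated liver X receptors (LXR). They were chosen by symbol from a fixed list of 35 genes, and 34 of them had a row among the 16726 genes listed in each of the deposited tables. ABCG1, the other listed gene, is not analysed here. The 34 genes were sorted by role into 18 enzymes of the cholesterol pathway, 6 genes of sterol sensing and transport, 7 fatty acid enzymes and 3 genes of the LXR pathway. The libraries came from MM6 (MonoMac 6) and NB4, established human acute myeloid leukaemia lines, sequenced as poly(A) RNA. Each line carried either shM14, a lentiviral pLKO.1 hairpin against METTL14 that the labels number shM14-#2, or shNS, the non-specific hairpin, with 2 libraries in each of the 4 groups. All 4 groups were transduced and kept in 0.5 µg/mL puromycin for 2 passages. A single hairpin against METTL14 was used, and the labels do not say whether the libraries of a group came from separate cultures, so the p-values reflect only library-to-library spread, which may be technical. METTL14 is the partner of METTL3 in the enzyme complex that writes N6-methyladenosine on RNA, and the study asked what its knockdown does to the transcripts of leukaemia cells.

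Cells match sterol supply to demand through the SREBP transcription factors, encoded by SREBF1 and SREBF2. When membrane sterol falls, SCAP escorts the SREBP precursors from the endoplasmic reticulum to the Golgi, where they are cut, and the released factors switch on the genes of cholesterol and fatty acid synthesis. INSIG1 and INSIG2 hold SCAP back when sterols are plentiful. For cholesterol, LXR acts on the other side of the balance: oxysterols activate it, and it raises export of cholesterol through ABCA1 and loss of lipoprotein receptors through MYLIP. In monocytes and macrophages, which take up lipid-rich debris, both arms are active.

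The promoters of 6 genes are shown because the results turn on these genes: INSIG1, HMGCS1 and SCD are textbook SREBP targets, TM7SF2 and STARD4 moved against most of the others in NB4, and ABCA1 is the LXR target. Each sequence is the 250 bases before the RefSeq transcription start in GRCh38.p14, written 5′ to 3′ on the gene's strand. The windows lie at chr7:155297628-155297877 on the plus strand for INSIG1 and chr5:43313413-43313662 on the minus strand for HMGCS1. The SCD window is chr10:100346983-100347232 on the plus strand, and the TM7SF2 window is chr11:65111622-65111871 on the plus strand. STARD4 lies at chr5:111512536-111512785 and ABCA1 at chr9:104928156-104928405, both on the minus strand. HMGCS1 has 2 windows in the RefSeq table, and the outer is shown. All are flanking sequence upstream of the annotated start. Capitals mark matches, on either strand, to CACNCCAC (a sterol-element core), CCAAT (the NF-Y box) and CACGTG (the E box), and no marked matches overlap.
INSIG1: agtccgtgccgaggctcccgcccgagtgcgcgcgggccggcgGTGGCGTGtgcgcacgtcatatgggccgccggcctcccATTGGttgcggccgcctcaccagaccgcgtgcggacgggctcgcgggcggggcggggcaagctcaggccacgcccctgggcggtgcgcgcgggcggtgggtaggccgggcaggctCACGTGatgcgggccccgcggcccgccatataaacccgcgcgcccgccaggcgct
HMGCS1: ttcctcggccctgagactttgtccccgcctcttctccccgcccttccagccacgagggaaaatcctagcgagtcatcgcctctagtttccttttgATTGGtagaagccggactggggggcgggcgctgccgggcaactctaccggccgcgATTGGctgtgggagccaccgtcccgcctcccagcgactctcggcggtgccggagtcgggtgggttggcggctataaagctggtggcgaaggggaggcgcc
SCD: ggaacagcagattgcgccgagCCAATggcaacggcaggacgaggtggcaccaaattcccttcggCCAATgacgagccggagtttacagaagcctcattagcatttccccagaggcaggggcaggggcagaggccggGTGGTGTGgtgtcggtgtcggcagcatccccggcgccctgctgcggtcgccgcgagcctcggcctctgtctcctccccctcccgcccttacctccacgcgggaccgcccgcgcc
TM7SF2: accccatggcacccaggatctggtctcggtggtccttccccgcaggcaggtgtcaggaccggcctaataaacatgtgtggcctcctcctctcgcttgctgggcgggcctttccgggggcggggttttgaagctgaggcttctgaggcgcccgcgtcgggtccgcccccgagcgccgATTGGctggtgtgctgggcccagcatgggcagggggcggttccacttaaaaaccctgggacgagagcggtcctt
STARD4: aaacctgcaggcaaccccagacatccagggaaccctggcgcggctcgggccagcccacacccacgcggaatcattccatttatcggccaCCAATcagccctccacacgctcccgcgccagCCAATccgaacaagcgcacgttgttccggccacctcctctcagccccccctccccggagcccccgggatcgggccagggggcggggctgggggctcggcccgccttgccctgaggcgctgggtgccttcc
ABCA1: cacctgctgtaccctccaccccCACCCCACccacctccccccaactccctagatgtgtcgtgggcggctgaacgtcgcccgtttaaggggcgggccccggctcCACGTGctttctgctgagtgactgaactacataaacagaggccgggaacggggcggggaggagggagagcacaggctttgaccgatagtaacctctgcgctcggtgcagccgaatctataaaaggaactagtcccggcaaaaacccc

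INSIG1 held all 3 motifs, SCD held a CACNCCAC and a pair of CCAAT boxes, and HMGCS1 and STARD4 each held a pair of CCAAT boxes. TM7SF2 held a single CCAAT box, and ABCA1 held a CACNCCAC and an E box but no CCAAT. Of the 35 listed genes, 30 had a window in the RefSeq table, and a gene was counted if any of its windows held the motif. CCAAT was found in 21 of these 30 (70.0%), and in 37.0% of the 27305 genes with a window; among the cholesterol enzymes it was in 13 of 15. CACNCCAC was found in 7 of 30 (23.3%, against 5.9% of all genes), in IDI1, SC5D, INSIG1, SREBF2, ACACA, SCD and ABCA1. CACGTG was found in 4 of 30 (13.3%, against 7.7%). The nuclear receptor half-site AGGTCA was also in 4 of 30 (13.3%, against 14.6%): DHCR7, ACACA, ELOVL6 and NR1H3. These are exact letter matches in a short window and say nothing of binding. Sites that differ from these letters, in ABCA1 as in any other gene, were not counted.

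The depth was 23272126 to 28814911 reads per library over the listed genes. METTL14 stood at 6.54 and 6.55 RPKM (reads per kilobase of gene model, scaled to the library's total) in MM6 shM14, against 12.5 and 13.4 RPKM in MM6 shNS. In NB4 it stood at 8.35 RPKM in both shM14 libraries, against 14.1 and 12.5 RPKM in the shNS libraries. The log2 change was -0.88 in MM6 (adjusted p = 0.088, limma) and -0.61 in NB4 (adjusted p = 0.0024, limma). The MM6 replicates were less alike than the NB4 replicates. Over all genes tested, the replicate differences had an SD of 0.377 for shM14 and 0.353 for shNS in MM6, against 0.125 and 0.152 in NB4 on the log2 scale. For 30 of the 34 genes described here, MM6 shM14 replicate 1 was the lowest MM6 library, and for 28 of 34 MM6 shNS replicate 2 was the highest. Per the labels both lines come from acute monocytic leukemia, although NB4 is generally known as a promyelocytic line. A list of 8 monocyte genes (among them CD14, LYZ and CD36) was measured in full. Over both lines 8 of 8 were higher with shM14 (limma), against 4.80% of all genes; CD163 was at 0 in NB4 shNS replicate 1. The 6 promyelocyte granule genes summed to 4368 to 5022 RPKM in the MM6 libraries and 2332 to 2685 RPKM in the NB4 libraries, where MPO alone gave 2117 to 2490 RPKM. ELANE, also on that list, stood at 6.45 and 6.83 RPKM in replicate 2 of NB4 shM14 and NB4 shNS and at 0.04 and 0.05 RPKM in replicate 1. Of markers of other cells, CD3D reached 45.0 to 60.6 RPKM and EPCAM 9.27 to 10.2 RPKM in NB4 and neither passed 0.21 RPKM in MM6. Each was the only 1 of the 3 genes on its list, T-cell or epithelial, that was measured. The 2 measured B-cell genes summed to at most 2.43 RPKM and the 2 measured erythroid genes to at most 1.03 RPKM in any library. Bulk RNA cannot tell fewer cells of a type from less RNA per cell.

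The lipid genes were expressed at moderate to high levels in both lines. Their median group mean was 24.6 RPKM in MM6 shM14, 29.02 RPKM in MM6 shNS, 42.4 RPKM in NB4 shM14 and 33.5 RPKM in NB4 shNS. SCD, the desaturase that makes oleate from stearate, had the highest mean over all 8 libraries at 174 RPKM. ELOVL6, which lengthens saturated fatty acids, was the lowest, because MM6 had almost none: 4 reads and 0 reads in MM6 shM14, and 1 read and 0 reads in MM6 shNS. HSD17B7, a ketoreductase of the late cholesterol pathway, was the next lowest, at a mean of 4.32 RPKM.

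**Figure D1:**
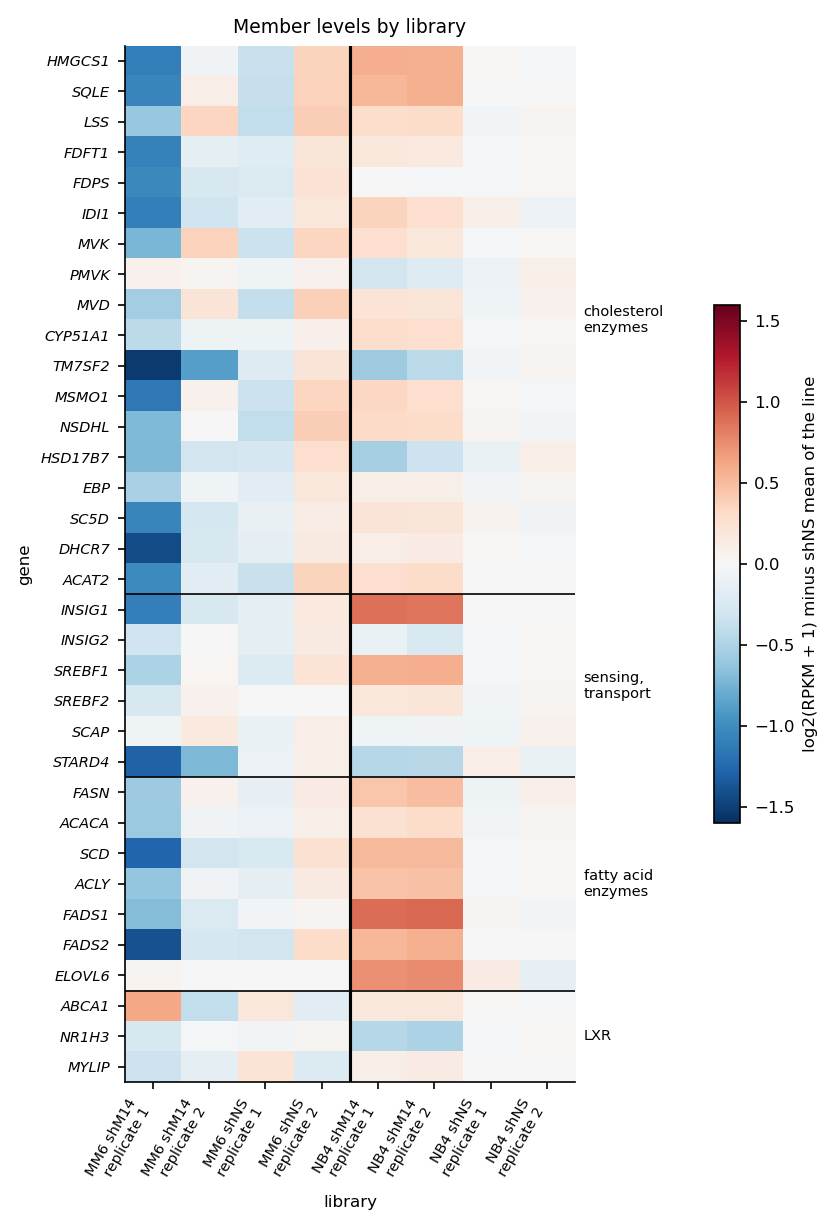
Level of each of the 34 genes (rows, by role) in each of the 8 libraries (columns), as log2(RPKM + 1) minus the mean of the shNS libraries of the same line; red is higher and blue is lower than that mean. The NB4 shM14 libraries are red for most synthesis genes, the MM6 shM14 replicate 1 column is blue for most rows, and TM7SF2, HSD17B7 and STARD4 are blue in the shM14 libraries of both lines.

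In NB4, METTL14 knockdown went with higher transcripts for most of the lipid genes. Of the 34 genes tested with limma on log2(RPKM + 1), 23 rose and 4 fell at an adjusted p under 0.05, and 7 did not pass. Over all 11531 genes tested in NB4, 22.1% were higher and 25.2% were lower. The median change of the 34 genes was 0.25 on the log2 scale, and that of all genes was -0.01. The ratio of group means ran from 0.663 for NR1H3 to 1.90 for FADS1. The monocyte genes summed to 130 and 131 RPKM in NB4 shM14, against 39.0 and 40.6 RPKM in NB4 shNS, and the 6 of 8 that were tested in NB4 all rose. Of the 6 promyelocyte granule genes, 4 fell in NB4 (CTSG by 2.51, and AZU1, CEBPE and MPO) and PRTN3 rose by 1.48 (limma); their sum was 2332 and 2375 RPKM in NB4 shM14, against 2584 and 2685 RPKM in NB4 shNS. CD3D rose by 0.37 (limma, adjusted p = 0.0046), and EPCAM did not pass (-0.02). The part of these markers in the lipid gene results was not tested.

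Of the 18 cholesterol enzymes in NB4, 12 rose, 2 fell and 4 did not pass, with a median log2 change of 0.22. HMGCS1, which condenses acetyl units into HMG-CoA, stood at 155 and 154 RPKM in NB4 shM14, against 106 and 101 RPKM in NB4 shNS. SQLE, the squalene epoxidase, stood at 46.4 and 47.9 RPKM in NB4 shM14, against 31.7 and 32.1 RPKM in NB4 shNS. In both genes the shM14 libraries lay above both shNS libraries, with ratios of means of 1.49 and 1.48. The limma estimates were 0.58 ± 0.05 for HMGCS1 and 0.55 ± 0.05 for SQLE (log2, moderated SE, n = 2 against 2), each with an adjusted p of 0.0013. The other 10 enzymes that rose did so by 0.16 to 0.31 on the log2 scale. They were IDI1, MVK and MVD of the mevalonate and isoprenoid steps, FDFT1 and LSS, which make squalene and lanosterol, CYP51A1, MSMO1, NSDHL and SC5D of the post-lanosterol steps, and ACAT2, the cytosolic thiolase that starts the pathway.

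TM7SF2 and HSD17B7 went the other way in NB4. TM7SF2, a sterol reductase whose reaction the nuclear envelope protein LBR can also carry out, stood at 6.05 and 6.77 RPKM in NB4 shM14, against 9.15 and 9.84 RPKM in NB4 shNS. It fell by 0.50 on the log2 scale (limma, adjusted p = 0.0045). HSD17B7 stood at 3.92 and 4.68 RPKM in NB4 shM14, against 5.65 and 6.66 RPKM in NB4 shNS. It fell by 0.43 (limma, adjusted p = 0.022), and its libraries did not overlap between hairpins. The 4 enzymes that did not pass were FDPS (-0.01), PMVK (-0.25), EBP (0.10) and DHCR7 (0.12), with limma adjusted p of 0.053 to 0.86. FDPS, the farnesyl diphosphate synthase, stood at 83.4 and 82.3 RPKM in NB4 shM14, against 81.6 and 85.5 RPKM in NB4 shNS. FDPS, HSD17B7, CYP51A1 and SCD have processed or duplicated pseudogenes, and how reads shared with them were counted is not stated, so their values are less certain.

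Among the sterol-sensing genes in NB4, INSIG1 had the second-largest change of all 34. It stood at 167 and 164 RPKM in NB4 shM14, against 90.8 and 89.6 RPKM in NB4 shNS. The ratio of means was 1.84 and the log2 change 0.87 ± 0.04 (limma, adjusted p = 0.00043). Its homologue INSIG2 did not pass, at 11.04 and 10.01 RPKM in NB4 shM14, against 11.69 and 12.29 RPKM in NB4 shNS. SREBF1, the source of the SREBP form best known for fatty acid genes, stood at 23.4 and 23.6 RPKM in NB4 shM14, against 15.1 and 15.9 RPKM in NB4 shNS. Its log2 change was 0.57 ± 0.05 (limma, adjusted p = 0.0013). SREBF2, the cholesterol-directed form, rose by 0.19 (limma, adjusted p = 0.032), at 73.2 and 73.9 RPKM in NB4 shM14, against 62.6 and 66.2 RPKM in NB4 shNS. SCAP, with a change of -0.06, did not pass and its libraries overlapped. STARD4, a soluble carrier that moves cholesterol between membranes, fell by 0.45 (limma, adjusted p = 0.0091). It stood at 10.04 and 10.14 RPKM in NB4 shM14, against 15.31 and 13.11 RPKM in NB4 shNS.

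All 7 fatty acid enzymes rose in NB4, with a median log2 change of 0.51. FADS1, the delta-5 desaturase of polyunsaturated fatty acids, stood at 66.1 and 67.4 RPKM in NB4 shM14, against 36.0 and 34.2 RPKM in NB4 shNS. Its log2 change was 0.91 ± 0.05 (limma, adjusted p = 0.00051). FADS2, the delta-6 desaturase and its neighbour in the genome, stood at 128 and 132 RPKM in NB4 shM14, against 87.7 and 88.6 RPKM in NB4 shNS. Both desaturases thus had their NB4 shM14 libraries above their NB4 shNS libraries. ELOVL6 stood at 7.79 and 7.95 RPKM in NB4 shM14, against 4.83 and 3.83 RPKM in NB4 shNS, and rose by 0.74 (limma, adjusted p = 0.0039). SCD stood at 246 and 247 RPKM in NB4 shM14, against 169 and 176 RPKM in NB4 shNS, and rose by 0.51 (limma, adjusted p = 0.0016). FASN, the fatty acid synthase, ACLY, which supplies cytosolic acetyl-CoA, and ACACA, which makes malonyl-CoA, rose by 0.47, 0.46 and 0.27.

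The 3 measured LXR genes split in NB4. ABCA1, the cholesterol exporter, rose by 0.18 (limma, adjusted p = 0.031), at 10.91 and 11.03 RPKM in NB4 shM14, against 9.78 and 9.42 RPKM in NB4 shNS. NR1H3, which encodes LXR-alpha itself, fell by 0.48 (limma, adjusted p = 0.0023), at 3.60 and 3.42 RPKM in NB4 shM14, against 5.16 and 5.43 RPKM in NB4 shNS. MYLIP, the ubiquitin ligase that removes lipoprotein receptors, did not pass (0.11, limma adjusted p = 0.10), at 21.2 and 21.8 RPKM in NB4 shM14, against 19.9 and 19.7 RPKM in NB4 shNS. NR1H3 thus had lower shM14 libraries, while those of the exporter were higher. NR1H2, the other LXR receptor gene, was on the list of LXR partners and rose by 0.22 (limma, adjusted p = 0.020). It stood at 21.3 and 22.4 RPKM in NB4 shM14, against 18.3 and 18.9 RPKM in NB4 shNS.

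How many NB4 calls were made depended on the libraries. Without shM14 replicate 1, 11 genes rose, and without shM14 replicate 2, 15 rose; leaving out either shNS library left 19 or 20. Leaving out any of these libraries also lowered the number of calls over all genes. When the spread was estimated from all 8 libraries together, 2 rose (FADS1 and ELOVL6) and 1 fell (NR1H3). Over all 11531 genes, 758 were higher and 1011 lower in that fit, so the lipid genes did not stand out in it. ELOVL6 had almost no reads in MM6, so the MM6 libraries added almost no spread to its estimate.

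**Figure D2:**
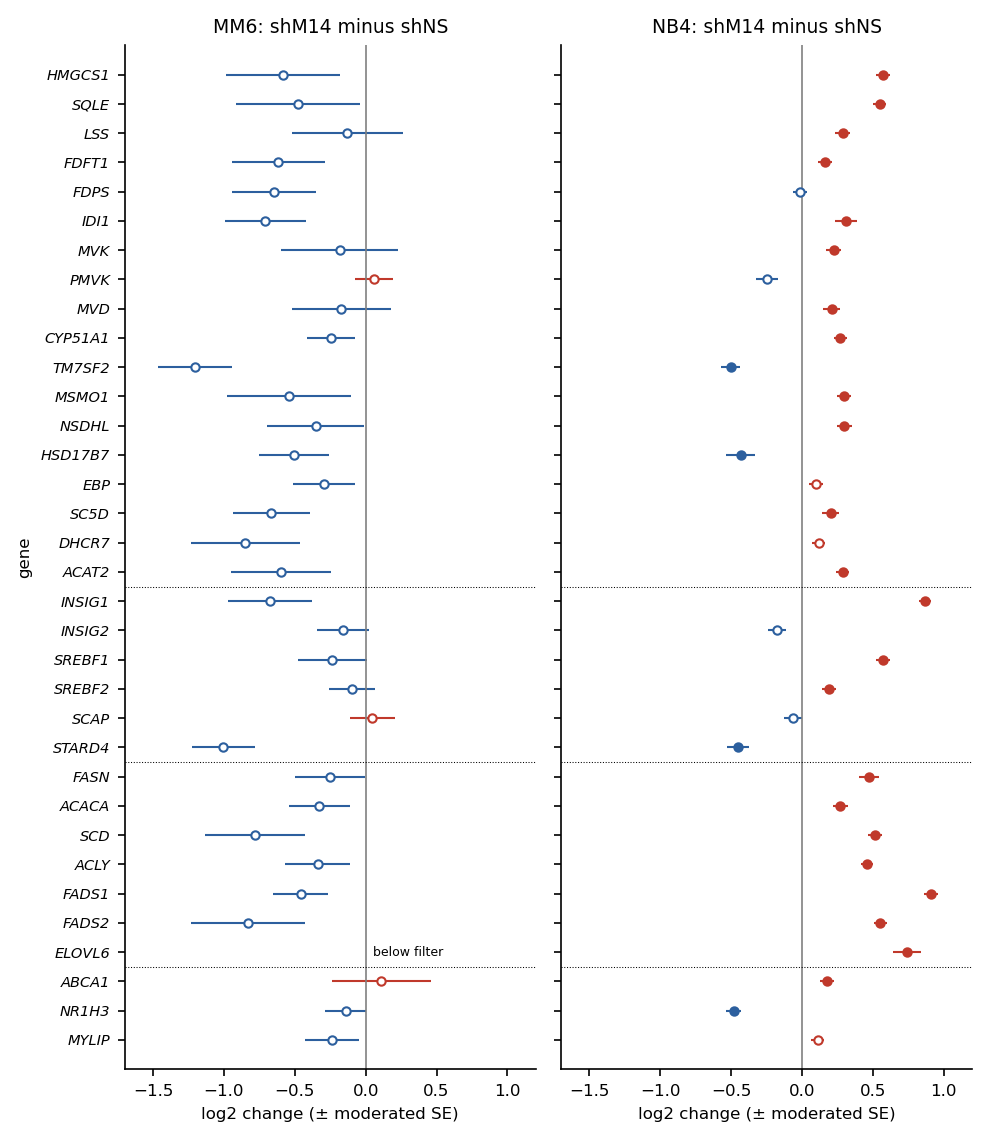
Log2 change of each gene, shM14 minus shNS, in MM6 (left) and NB4 (right), on the log2(RPKM + 1) scale; points are limma estimates, bars are ± the moderated standard error, filled points passed an adjusted p of 0.05, red is above 0 and blue is below 0. In NB4 27 points are filled, while in MM6 none is, and the MM6 bars are wider.

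In MM6 none of these genes passed, and nearly all estimates were below 0. Of the 33 genes tested (ELOVL6 was below the filter), 0 were higher and 0 lower in limma; over all 11895 genes tested in MM6, 0.0504% were higher and 0.0252% were lower, so calls were rare for every kind of gene. At an unadjusted p under 0.05 there were 2 (TM7SF2 and STARD4, both lower). Limma with voom weights on the recovered reads made no call either, while with the spread estimated from all 8 libraries together these 2 were lower (limma, adjusted p = 0.02 for each). Over all 11895 genes, 534 were higher and 781 lower in that last fit. The median change was -0.52 for the 18 cholesterol enzymes, -0.20 for the 6 sensing and transport genes and -0.40 for the 6 fatty acid enzymes tested, against -0.03 for all genes. For 10 genes both shM14 libraries lay below both shNS libraries: FDPS, IDI1, TM7SF2, HSD17B7, SC5D, DHCR7, INSIG1, STARD4, SCD and FADS1. No gene of the 33 had both shM14 libraries above both shNS libraries. Over all genes tested in MM6, 25.8% had non-overlapping lower and 19.0% non-overlapping higher shM14 libraries. The monocyte genes summed to 14535 and 8283 RPKM in MM6 shM14, against 9249 and 5871 RPKM in MM6 shNS. LYZ alone gave 14301 and 8164 RPKM in MM6 shM14, against 9206 and 5836 RPKM in MM6 shNS, and its libraries overlapped between hairpins. Of the 8 monocyte genes, 7 had both shM14 libraries above both shNS libraries in MM6. The library with the highest sum, shM14 replicate 1, was the lowest for most lipid genes. The part of the monocyte genes was not tested.

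TM7SF2 and STARD4 had the largest MM6 estimates. TM7SF2 stood at 8.23 and 13.4 RPKM in MM6 shM14, against 22.1 and 29.6 RPKM in MM6 shNS. Its log2 change was -1.20 ± 0.26 (limma, adjusted p = 0.16), and its ratio of means 0.419. STARD4 stood at 8.74 and 13.4 RPKM in MM6 shM14, against 21.3 and 24.4 RPKM in MM6 shNS. Its log2 change was -1.005 ± 0.221 (limma, adjusted p = 0.16). In both genes every shM14 library lay below every shNS library, with a gap wider than that between the replicates of either group. DHCR7, the last reductase of cholesterol synthesis, stood at 15.2 and 35.6 RPKM in MM6 shM14, against 38.6 and 47.6 RPKM in MM6 shNS.

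Most other synthesis genes overlapped between the MM6 groups, since replicate 2 lay above replicate 1 with either hairpin. HMGCS1 stood at 13.7 and 29.2 RPKM in MM6 shM14, against 23.6 and 39.2 RPKM in MM6 shNS. SQLE stood at 23.1 and 53.0 RPKM in MM6 shM14, against 37.8 and 64.3 RPKM in MM6 shNS. In both genes shM14 replicate 2 exceeded shNS replicate 1. Replicate 2 exceeded replicate 1 in 23 of the 24 synthesis enzymes tested with shM14 and in 24 of 24 with shNS; over all genes the shares were 70.2% and 59.9%. Set against shNS replicate 1, shM14 replicate 2 was higher in 16 of 24 synthesis enzymes. Set against shNS replicate 2, it was lower in 23 of 24. The shM14 replicate 1 library was lower in 23 of 24 against shNS replicate 1 and in 24 of 24 against shNS replicate 2. The median change of the 24 synthesis enzymes in MM6 (cholesterol and fatty acid enzymes together) was -0.49. It was -0.07 without shM14 replicate 1, -0.87 without shM14 replicate 2, -0.78 without shNS replicate 1 and -0.23 without shNS replicate 2.

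INSIG1 stood at 24.4 and 44.1 RPKM in MM6 shM14, against 47.3 and 59.2 RPKM in MM6 shNS. SCD stood at 69.6 and 139 RPKM in MM6 shM14, against 143 and 201 RPKM in MM6 shNS. FADS1 stood at 44.2 and 61.4 RPKM in MM6 shM14, against 69.6 and 74.6 RPKM in MM6 shNS. These 3 genes, which rose in NB4, had non-overlapping lower MM6 libraries with shM14, but their limma adjusted p values of 0.35 to 0.39 did not pass. SREBF1 stood at 16.7 and 24.5 RPKM in MM6 shM14, against 20.5 and 28.1 RPKM in MM6 shNS, and SREBF2 and SCAP also overlapped. The MM6 estimates of the LXR genes were 0.11 ± 0.35 for ABCA1, -0.14 ± 0.15 for NR1H3 and -0.24 ± 0.19 for MYLIP. ABCA1 stood at 6.45 and 2.67 RPKM in MM6 shM14, against 4.50 and 3.26 RPKM in MM6 shNS, so its shM14 libraries were both the highest and the lowest of the line.

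**Figure D3:**
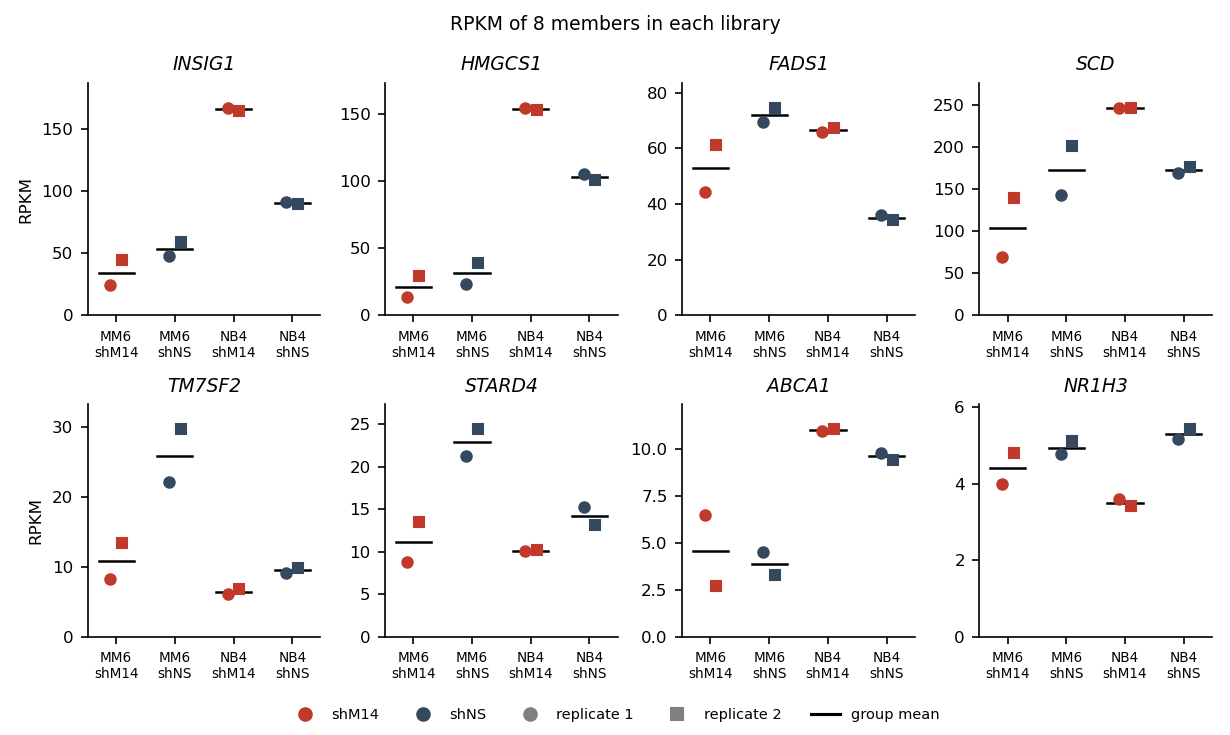
RPKM of 8 genes in every library, with shM14 in red, shNS in blue-grey, circles for replicate 1, squares for replicate 2 and a line at each group mean; each axis starts at 0. INSIG1, HMGCS1, FADS1 and SCD are higher with shM14 in NB4 and have lower means with shM14 in MM6, while TM7SF2 and STARD4 are lower with shM14 in both lines.

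Over both lines, TM7SF2 and STARD4 fell and no gene of the 34 rose. In the limma model with cell line and hairpin, 4.80% of 12804 genes were higher and 7.10% lower. The 34 genes were thus called no more often than all genes tested. TM7SF2 fell by 0.85 ± 0.19 (adjusted p = 0.027, limma) and STARD4 fell by 0.73 ± 0.16 (adjusted p = 0.024, limma), and each was lower in 4 of 4 shM14 libraries than in every shNS library of its line. Each call was lost, with an adjusted p of 0.052 to 0.071, when any of 5 single libraries was left out. For TM7SF2 these were both MM6 shNS libraries, NB4 shM14 replicate 1 and both NB4 shNS libraries; for STARD4 they were both MM6 shNS libraries, both NB4 shM14 libraries and NB4 shNS replicate 1. HSD17B7 (-0.47, adjusted p = 0.072) and NR1H3 (-0.31, adjusted p = 0.067) came next in limma and did not pass.

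The change in MM6 minus the change in NB4 was below 0 for 30 of 34 genes, and 1 of them passed. Over all 12804 genes tested with the limma interaction of hairpin and line, 1.53% were positive and 1.39% negative at the threshold. The gene that passed was FADS1, whose difference was -1.37 ± 0.21 on the log2 scale (limma, adjusted p = 0.029). It came from a change of -0.46 in MM6 and of 0.91 in NB4. The call was lost without either MM6 shNS library (adjusted p 0.061 and 0.065, limma) and without any of the 4 NB4 libraries (0.15 to 0.18, limma). INSIG1 had a larger estimate, -1.54 ± 0.35, that did not pass (limma, adjusted p = 0.074). The median difference of the synthesis enzymes was -0.73. It was -1.05 without MM6 shM14 replicate 2 and -0.38 without MM6 shM14 replicate 1. The estimate was above 0 in NB4 and below 0 in MM6 for 20 of the 24 synthesis enzymes tested in both lines (83.3%), and for 20.4% of the 10647 genes tested in both. These shares count signs of estimates. None of the synthesis enzymes passed in MM6, and few of all genes did.

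The synthesis enzymes and the LXR genes were set side by side within each line. In MM6 the median log2 change was -0.49 over the 24 synthesis enzymes and -0.14 over the 3 LXR genes. In NB4 it was 0.29 over the 25 synthesis enzymes, of which 19 rose and 2 fell, and 0.11 over the LXR genes, of which 1 rose and 1 fell. With 3 LXR genes that differ in direction, the medians describe these genes and no test of the lists was made. These lists sort genes by role, and which factor drove each gene was not tested. By mean level on the log2(RPKM + 1) scale, the synthesis enzymes stood at 4.07 and 4.80 in MM6 shM14, against 4.68 and 5.12 in MM6 shNS. In NB4 they stood at 5.41 and 5.42 with shM14, against 5.14 and 5.16 with shNS. The LXR genes stood at 3.28 and 3.07 in MM6 shM14, against 3.38 and 3.15 in MM6 shNS. In NB4 they stood at 3.42 and 3.41 with shM14, against 3.48 in both shNS libraries. MM6 shM14 replicate 1 had the lowest synthesis level of the 8 libraries, and its LXR level was above that of replicate 2.

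**Figure D4:**
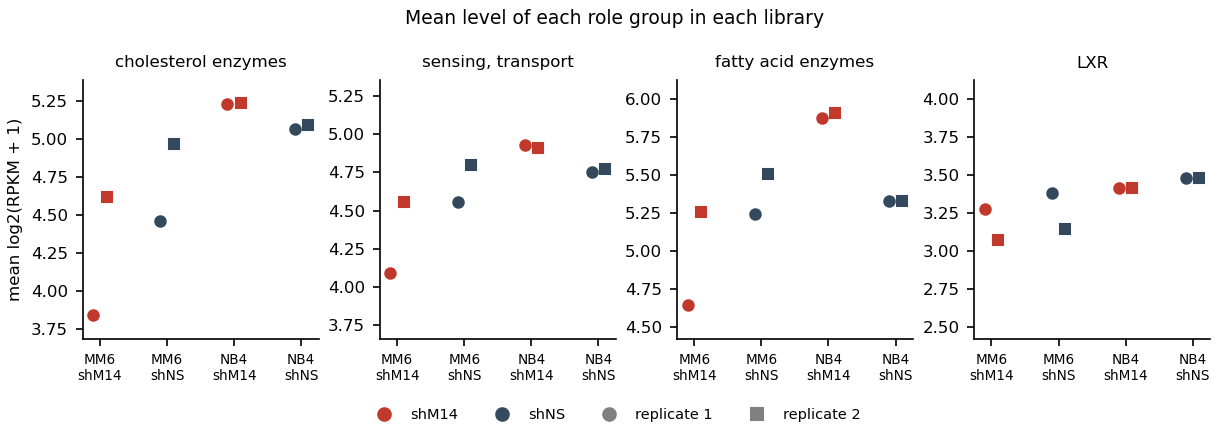
Mean log2(RPKM + 1) of each role group in each library, with shM14 in red, shNS in blue-grey, circles for replicate 1 and squares for replicate 2; the axes span the same range of log2 units but start at different values. In NB4 the cholesterol enzymes stand at 5.23 and 5.24 with shM14 and 5.07 and 5.10 with shNS, while in MM6 they stand at 3.84 and 4.62 with shM14 and 4.46 and 4.97 with shNS, farther apart within a hairpin than between the hairpin means.

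With the control hairpin, the lines differed in these genes about as often as in all genes tested. In MM6 shNS minus NB4 shNS, 9 of 34 genes were higher in MM6 and 15 lower, and over 12450 genes tested with limma 34.3% were higher and 36.8% lower. How many were called depended on the libraries kept. The median log2 difference of the synthesis enzymes was -0.37. It was -0.03 without MM6 shNS replicate 1 and -0.24 without NB4 shNS replicate 2. Of the cholesterol enzymes, 10 were lower and 3 higher in MM6. MVK, the mevalonate kinase, stood at 3.96 and 6.96 RPKM in MM6 shNS, against 19.6 and 20.1 RPKM in NB4 shNS, a ratio of means of 0.275. HMGCS1 stood at 23.6 and 39.2 RPKM in MM6 shNS, against 106 and 101 RPKM in NB4 shNS, a ratio of 0.304. TM7SF2 was the most shifted enzyme in the other direction, with a mean of 25.8 ± 5.3 RPKM in MM6 shNS, against 9.50 ± 0.49 RPKM in NB4 shNS (SD, n = 2 each). FADS1 averaged 72.1 ± 3.6 RPKM in MM6 shNS, against 35.1 ± 1.3 RPKM in NB4 shNS, and FASN 130 ± 16.1 RPKM in MM6 shNS, against 59.0 ± 4.7 RPKM in NB4 shNS. SCD did not differ beyond its spread, at 143 and 201 RPKM in MM6 shNS, against 169 and 176 RPKM in NB4 shNS; its direction followed the MM6 library kept. Without MM6 shNS replicate 1 the log2 difference was 0.22 (limma, adjusted p = 0.044), and without MM6 shNS replicate 2 it was -0.26 (limma, adjusted p = 0.024). ABCA1 was lower in MM6, at 4.50 and 3.26 RPKM in MM6 shNS, against 9.78 and 9.42 RPKM in NB4 shNS, and MYLIP was higher (log2 difference 0.57). The log2 difference of ELOVL6, -2.40, depends on the pseudocount, since MM6 had next to no reads.

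Other genes of the pathways, listed with earlier results of these data known, were called as follows. In NB4, where 22.1% of all genes were higher and 25.2% lower, 10 of 14 further fatty acid genes rose and 1 fell, and 4 of 5 tested LXR partners and targets rose and 1 fell. Of the 10 genes of uptake, storage and transport, 2 rose and 3 fell, and of 5 further synthesis genes 1 rose and 1 fell. Of 7 genes of sensing and degradation, 0 rose and 1 fell. The smallest p in NB4 belonged to ACSL1, which activates fatty acids with coenzyme A, at 49.4 RPKM in shM14, against 18.6 RPKM in shNS (group means). ME1, a source of NADPH, had means of 19.0 RPKM in NB4 shM14 and 8.32 RPKM in NB4 shNS, and ACACB, the mitochondrial acetyl-CoA carboxylase, had 1.91 RPKM in NB4 shM14 and 4.12 RPKM in NB4 shNS. In MM6 none of these lists had a call. The smallest p there belonged to NPC1, which exports cholesterol from lysosomes, at 14.2 and 13.1 RPKM in MM6 shM14, against 37.1 and 34.7 RPKM in MM6 shNS (log2 change -1.33, limma adjusted p = 0.060). SMPDL3A, an LXR-responsive phosphodiesterase, stood at 24.7 and 22.3 RPKM in MM6 shM14, against 9.84 and 11.4 RPKM in MM6 shNS (1.08, limma adjusted p = 0.081). Both genes differed between the lines in their change, NPC1 by -1.13 (limma, adjusted p = 0.012) and SMPDL3A by 1.10 (limma, adjusted p = 0.016), but SMPDL3A had almost no reads in NB4. LBR, the reductase that can stand in for TM7SF2, rose over both lines by 0.58 (limma, adjusted p = 0.0047). It stood at 121 and 103 RPKM in MM6 shM14, against 75.8 and 71.7 RPKM in MM6 shNS. In NB4 it stood at 101 and 98.5 RPKM with shM14, against 69.5 and 65.2 RPKM with shNS. Thus the shM14 libraries of both lines lay above their shNS libraries in LBR and below them in TM7SF2.

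In the authors' deposited table for MM6, 0 of 34 genes were higher and 2 were lower at an adjusted p under 0.05, against 1.58% and 1.69% of 16726 genes. The 2 were TM7SF2 (log2 fold change -1.23) and STARD4 (-1.02). In the authors' deposited table for NB4, 26 of 34 were higher and 5 lower, against 22.1% and 21.5% of 16726 genes; PMVK was the fifth lower gene.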

How the data were processed

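Poly(A) RNA of the 4 groups (100 ng of input RNA per library, directional kit) was read from a single end over 50 bp, per the labels' protocols. With aligner, counter, genome build and counting strand not given in the sources used here, overlapping genes, close paralogs and pseudogenes are less certain. The authors deposited 1 table per line. The deposited RPKM values per library are reads per kilobase, scaled to the reads assigned to genes, a unit worked out from the values. The deposited signal columns are group means of reads divided by size factors. The authors' ratio column gives shM14 over shNS as a fold change, and the log2 column is its log2 per the file headers. The p-value columns hold p before and after the authors' adjustment. Reads recovered from the RPKM and group means came out whole for 100.0% of values within 0.01 reads, and gave the depths.

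Genes reaching an RPKM of 1 in 2 or more libraries of a comparison were fitted as log2(RPKM + 1) with limma 3.58.1 (R 4.3.3), with empirical Bayes moderation and Benjamini-Hochberg adjustment over all genes tested, at 0.05. Log2 changes on this scale understate the change of low genes. Each line was fitted alone; the common change and the difference between lines used all 8 libraries. The models of each line were tested on simulated independent libraries with the same spread in both lines. That test cannot speak for the wider and shared replicate differences seen in MM6. Alternatives were a pseudocount of 0.1, no filter, a minimum RPKM of 5, median-of-ratios scaling, all 8 libraries in 1 model, a replicate block, voom on the recovered reads and leaving out each library. All listed members, METTL14, NR1H2 and, of the other related genes, up to 4 with the smallest p per comparison are named. The members and lists were chosen with earlier results of these data known. Promoters are from RefSeq (GRCh38.p14), without the 50 bases after the start. Summaries and figures used Python 3.11.15, numpy 2.4.6, pandas 2.3.3 and matplotlib 3.10.9.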

Additional observations from a re-analysis of the deposited data

Results flagged for a closer look

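FADS1 stood out because its change differed between the lines by a test of the difference itself. The change in MM6 minus that in NB4 was -1.37 on the log2 scale (limma interaction, adjusted p = 0.029), with a lower mean with shM14 in MM6 and a higher mean with shM14 in NB4. No other gene of the 34 passed this test. Groups of 2 libraries are too small to test for outlying libraries.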

How the results depend on the processing

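Signs of called genes held under every alternative run. In NB4, 14 of the 27 calls held in every fit that left out a library, and 3 (FADS1, ELOVL6 and NR1H3) held in every alternative; fitting all 8 libraries in 1 model left 2 higher and 1 lower in NB4 and gave 2 lower in MM6. ELOVL6 had at most 4 reads in any MM6 library, so MM6 added almost no spread to it in the fit of all 8 libraries. Its call in that fit therefore says little of how firm it is. Median-of-ratios scaling put the median of the LXR genes at 0.14 in NB4 and -0.029 between the control lines, and made 3 genes negative for the difference. Voom on the recovered reads made 1 gene, ELOVL6, higher over both lines. With the replicate number as a block, 11 genes were lower in MM6 and 14 negative for the difference, and over all genes in MM6 the block moved the calls to 595 higher and 810 lower, against 6 and 3 without it. The labels give no meaning to the numbers; same-numbered libraries deviated together with a correlation of 0.701 in MM6 and 0.080 in NB4. The block left 20 higher and 5 lower in NB4.

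Leaving out each library in turn gave 11 to 20 genes higher and 3 to 5 lower in NB4, 0 higher and 0 lower in MM6, 0 higher and 0 to 3 lower over both lines, 0 positive and 0 to 13 negative for the difference, and 5 to 14 higher and 9 to 19 lower between the control lines. The median of the synthesis enzymes ran from 0.26 to 0.28 in NB4, -0.87 to -0.07 in MM6, -0.15 to 0.18 over both lines, -1.05 to -0.38 for the difference and -0.50 to -0.030 between the control lines. The median of the LXR genes ran from 0.09 to 0.13 in NB4, -0.25 to -0.02 in MM6, -0.11 to 0.06 over both lines, -0.26 to 0.23 for the difference and -0.13 to -0.04 between the control lines. SCD, not called between the control lines, was 0.22 without MM6 shNS replicate 1 and -0.26 without MM6 shNS replicate 2, past the threshold in both fits. Each group had 2 libraries, and a fit without a library assumes that the lone library varies like the others; at this depth the reads of ELOVL6 in MM6 (at most 4) allow no comparison.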
